A study of Mus musculus with 9 samples.

Results

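The p53 gene Trp53 and 9 of its best known target genes were followed in mouse basal ganglia after intracerebral hemorrhage (ICH). The 10 genes, Trp53, Cdkn1a, Mdm2, Ccng1, Bax, Phlda3, Trp53inp1, Gdf15, Plk2 and Eda2r, were chosen by name among the 55401 genes of the deposited table, and each matched 1 gene. RNA sequencing was available for 3 groups of 3 libraries, all from wildtype mice, which the methods of the study describe as adult male C57BL mice. Sham mice had the needle insertion without blood, ICH mice received their own blood and then the vehicle used for Laminaria, and the mice of the third group had ICH and were treated with Laminaria. The labels give day 3 for all sham and ICH libraries and days 4, 5 and 6 for Laminaria-treated ICH 1, 2 and 3, so the effects of treatment and of day cannot be told apart. The paper's RNA sequencing figure likewise places the ICH tissue at day 3, beside sham, and describes it as brain tissue around the hematoma. For the Laminaria-treated libraries, whether these are sampling days is not stated beyond the label. The labels state neither dose nor route of Laminaria, and the paper describes no Laminaria but LA-1 (Leukadherin-1), an agonist of the complement receptor CR3. What the third group received is therefore uncertain, and it is named here as in the labels. No label says that the 3 libraries of a group came from separate mice, and the p-values reflect library-to-library spread, which may be technical. The sham group controls for the needle and not for an injected volume.

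The p53 protein is a transcription factor that is kept scarce because Mdm2, the product of one of its own targets, marks it for degradation. DNA damage, oncogene activity and other stresses stabilise the protein, which then switches on genes that stop the cell cycle, repair DNA or start cell death. Most of this control acts on the protein, so the level of Trp53 mRNA alone does not report p53 activity. In the brain p53 is known mainly from neurons, where it can drive cell death after injury, and from dividing glia, where it restrains proliferation.

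p53 binds DNA through a decamer, the p53 half-site of the textbooks, and a full site is a pair of decamers close to each other. The decamer consensus reads alike on both strands. Windows of 300 bases, from 250 bases before to 50 after a transcription start, were available for 9 of the 10 genes, with more than 1 start for Cdkn1a and Gdf15, 11 windows in all. An exact decamer was found in windows of 5 genes, Trp53, Cdkn1a, Mdm2, Ccng1 and Bax, against 8.36% of the 32851 RefSeq windows of all genes. A pair of decamers with at most 1 mismatch in total and 0 to 13 bases between them was found for 3 genes, Cdkn1a, Ccng1 and Bax, against 1.09% of all windows. Such a match is a description of the letters and not evidence that p53 was bound there. The windows of Trp53 and of the 3 genes with a pair are shown because Trp53, Ccng1 and Bax are the genes that changed after ICH, and because Cdkn1a carries the best match. They are RefSeq sequence of build GRCm38.p6, written 5′ to 3′ along the gene's strand, with exact decamers and the decamers of a pair in capitals.
Cdkn1a, upstream start, chr17:29090729-29091028, plus strand: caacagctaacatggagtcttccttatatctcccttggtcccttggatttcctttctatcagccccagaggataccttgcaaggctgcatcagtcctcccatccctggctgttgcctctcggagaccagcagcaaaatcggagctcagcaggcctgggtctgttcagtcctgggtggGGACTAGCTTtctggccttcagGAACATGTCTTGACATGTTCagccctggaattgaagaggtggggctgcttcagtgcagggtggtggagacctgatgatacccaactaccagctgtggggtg
Ccng1, chr11:40755237-40755536, minus strand: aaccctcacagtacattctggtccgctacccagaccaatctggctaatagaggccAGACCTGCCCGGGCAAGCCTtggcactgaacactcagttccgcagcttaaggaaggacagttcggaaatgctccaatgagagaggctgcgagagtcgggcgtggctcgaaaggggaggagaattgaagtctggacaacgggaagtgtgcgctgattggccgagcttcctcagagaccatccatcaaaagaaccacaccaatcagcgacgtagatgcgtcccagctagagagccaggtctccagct
Bax, chr7:45466849-45467148, minus strand: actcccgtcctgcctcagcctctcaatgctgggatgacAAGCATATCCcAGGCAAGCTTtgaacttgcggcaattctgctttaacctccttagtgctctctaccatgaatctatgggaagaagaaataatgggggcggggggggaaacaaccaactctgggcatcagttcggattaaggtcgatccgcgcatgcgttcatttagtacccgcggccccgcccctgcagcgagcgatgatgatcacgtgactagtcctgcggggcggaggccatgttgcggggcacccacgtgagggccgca
Trp53, chr11:69580109-69580408, plus strand: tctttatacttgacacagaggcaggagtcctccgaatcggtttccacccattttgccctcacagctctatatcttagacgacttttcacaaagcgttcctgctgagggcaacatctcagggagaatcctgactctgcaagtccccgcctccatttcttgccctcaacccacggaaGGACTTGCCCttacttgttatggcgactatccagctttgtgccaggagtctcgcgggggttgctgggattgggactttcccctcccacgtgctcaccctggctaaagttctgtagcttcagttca

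The Cdkn1a window held an exact decamer 73 bases before the start and another 51 bases before it, a pair with 0 mismatches. The second one also ran without a gap into a decamer with 1 mismatch. This window belongs to the upstream start of Cdkn1a. The other start lies 2790 bases further downstream, and its window held no decamer. In Ccng1 a decamer with 1 mismatch, beginning 195 bases before the start, touched an exact one that began 185 bases before it. In Bax the exact decamer began 201 bases before the start, with a decamer of 1 mismatch on its upstream side and 1 base between them. Trp53 had a lone decamer 75 bases before its start, and Mdm2 had one 186 bases before its start. No exact decamer was found in the windows of Phlda3, Gdf15, Plk2 and Eda2r, and Trp53inp1 was the gene without a window.

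**Figure D1:**
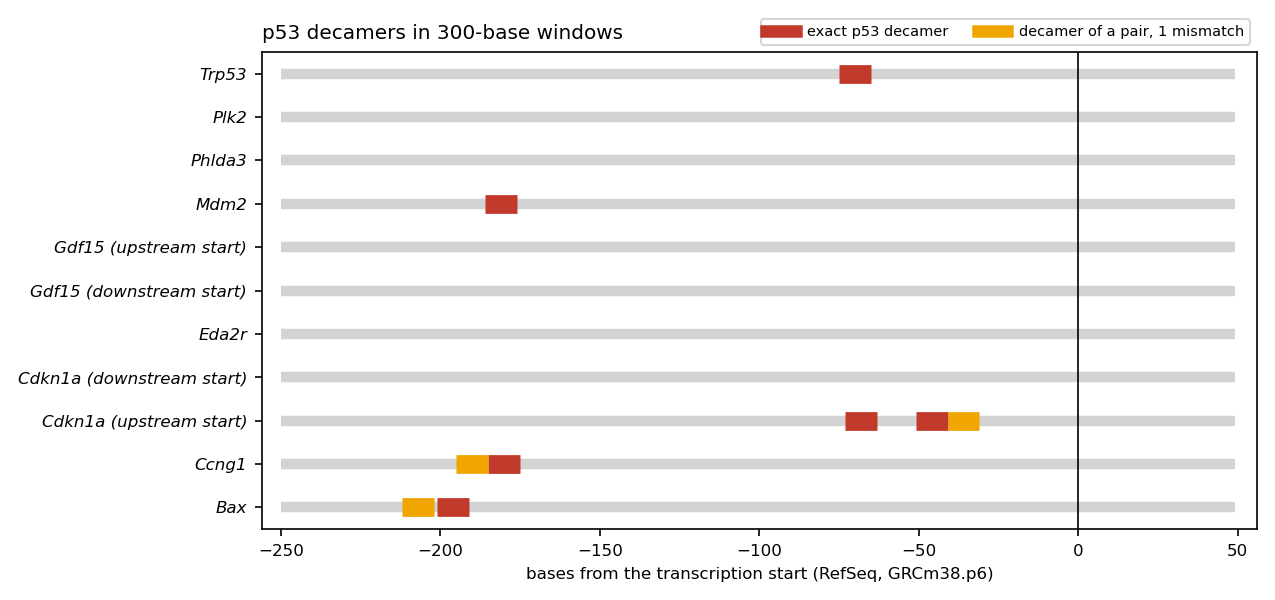
Positions of p53 decamers in the RefSeq windows of 9 genes, in bases from the transcription start (x axis); each grey bar is 1 window, red marks an exact decamer and orange a decamer with 1 mismatch that is part of a pair. Marks appear for Trp53, Mdm2, Ccng1, Bax and the upstream start of Cdkn1a, and the pairs of Ccng1 and Bax lie farther from the start than those of Cdkn1a.

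Total deposited counts were 51307799 to 74649716 per library. Low counts came in steps of 3.69 to 3.79 counts, and the totals therefore exceed the fragments sequenced. Mitochondrial genes held 6.01% to 7.32% of the counts. Levels are given as scaled counts (CPM) after TMM scaling over the 9 libraries, and as FPKM, the authors' value per transcript length, where genes are compared with each other. Genes were called at an adjusted p under 0.05 by edgeR with Benjamini-Hochberg adjustment over all genes that averaged 0.5 FPKM or more in the 6 libraries compared. All 5 markers of striatal medium spiny neurons, the main neurons of this tissue, were present in each library, with a summed level of 1380 to 3290 CPM. In tissue RNA, more cells of a type and more RNA per cell cannot be told apart.

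The 10 genes differed widely in level. By FPKM in the sham group, Plk2 led with 35.7 ± 8.63 (SD, n = 3), followed by Phlda3 with 19.8 ± 6.38, Bax with 15.2 ± 1.20 and Ccng1 with 14.3 ± 0.592. Cdkn1a followed at 9.73 ± 1.48, Mdm2 at 8.28 ± 0.354, Trp53 at 5.06 ± 0.315 and Trp53inp1 at 2.55 ± 0.523. Gdf15, at 0.250 ± 0.276, and Eda2r, at 0.0466 ± 0.0332, were close to undetected. Phlda3, Bax and Ccng1 lay within 1 SD of their neighbours in this order, as did Cdkn1a with Mdm2 and Gdf15 with Eda2r.

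After ICH, Trp53, Ccng1 and Bax rose by about 1.4-fold by edgeR, and edgeR called none of the 9 genes tested lower. The 3 genes called higher were among 9 tested, where 7.42% of all 16414 genes tested were called higher. None of the 9 was called lower, where 3.16% of all genes were, while DESeq2 called 1 lower, Plk2. An unadjusted p under 0.05 by edgeR was found for 4 of the 9 genes and for 4846 of all 16414. The median log2 fold change of the 9 genes was 0.45, beside 0.01 for all genes tested. The ICH and sham libraries did not overlap in 5 of the 9 genes tested, Trp53, Ccng1, Bax, Gdf15 and Plk2, and in Eda2r, which was not tested, where 36.6% of all genes tested did not overlap. Most single libraries were needed for the calls. Without any one of sham 1, sham 2, sham 3, ICH 2 or ICH 3, none of the 3 genes was called, and without sham 1, ICH 2 or ICH 3 edgeR called no gene at all, although 4127, 3696 and 3752 genes had a p under 0.05 before adjustment. All 3 stayed called without ICH 1, with adjusted p values of 0.011 to 0.0225, and 2746 genes in place of 1737 were called in all. The calls also depended on the fit. None of the 3 passed with no filter (adjusted p 0.0568 to 0.0983) or with the replicate number as a block (0.0704 to 0.0816), and Bax alone passed with all 9 libraries in 1 fit and with limma on log2(TPM + 1), where TPM is FPKM rescaled to 1 total in every library.

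**Figure D2:**
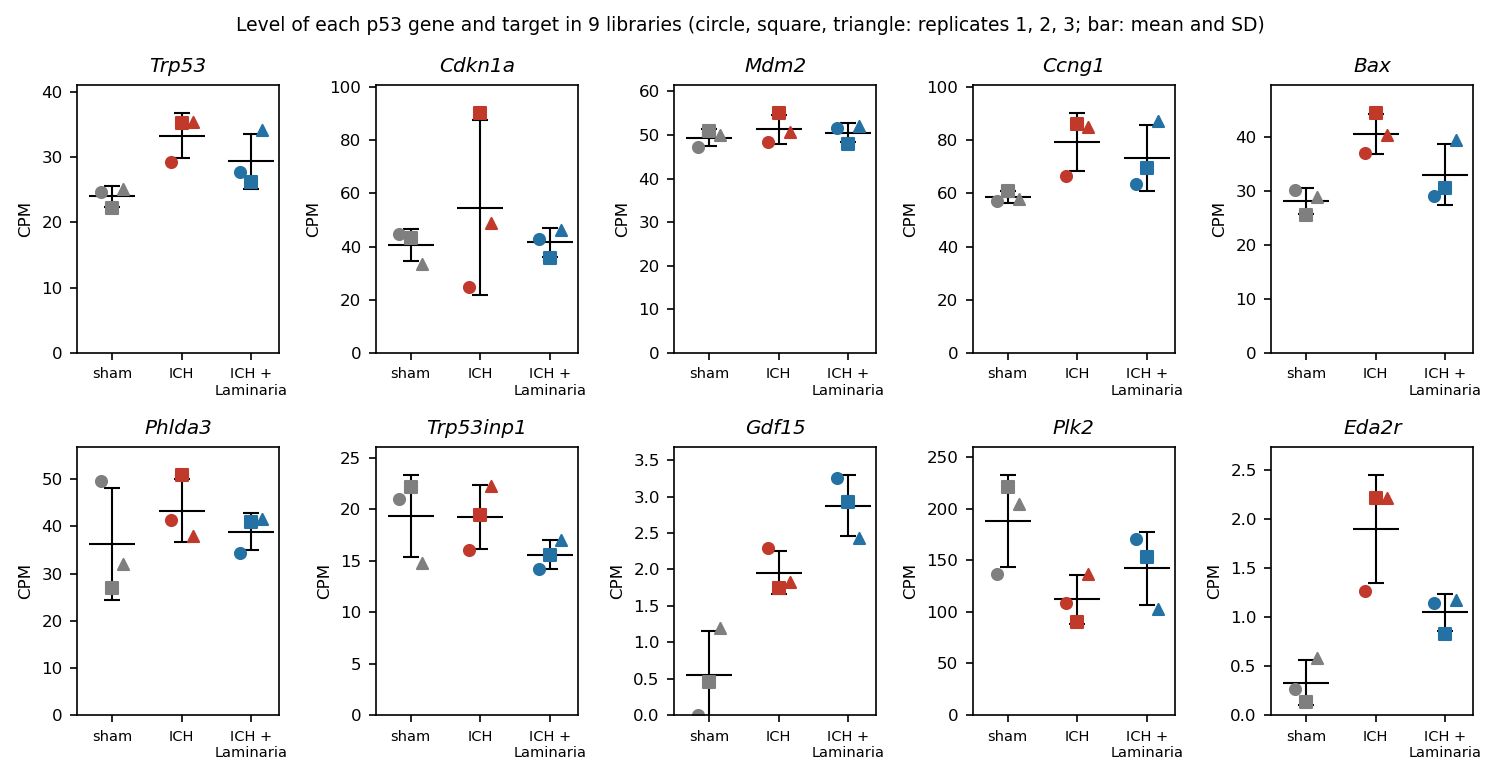
Level of the 10 genes in CPM (y axes from 0) in the sham, ICH and Laminaria-treated ICH libraries; symbols are the 3 libraries of a group, and the bar and whiskers are their mean and SD, drawn down to 0 only. Trp53, Ccng1 and Bax in ICH sit above every sham library, and Cdkn1a is spread from 24.9 to 90.2 CPM within the ICH group.

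Trp53 (chromosome 11, 69580359 to 69591873, plus strand, GRCm38), which encodes p53 itself, stood at 24.7, 22.2 and 25.1 CPM in sham 1, 2 and 3. It reached 29.3, 35.2 and 35.4 CPM in ICH 1, 2 and 3, so that the lowest ICH library lay above the highest sham library. The log2 fold change was 0.49 (SE 0.11, adjusted p = 0.042). A processed pseudogene, Trp53-ps, held 375 counts over the 9 libraries and could have shared reads with the gene.

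Mdm2 (chromosome 10, 117688875 to 117710758, minus strand), the ubiquitin ligase that degrades p53 and is itself a target of p53, was among the steadiest of the 10 genes. Its level was 47.3, 51.0 and 49.9 CPM in sham 1, 2 and 3 and 48.4, 55.0 and 50.6 CPM in ICH 1, 2 and 3. The groups overlapped, with a log2 fold change of 0.08 (SE 0.09, adjusted p = 0.599) that became -0.02 with TPM scaling.

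Of 20 listed regulators of p53, 17 were tested, 1 rose and 3 fell after ICH, with a median log2 fold change of -0.10, where 7.42% of all genes rose and 3.16% fell. A single gene in 17 is no more than that share. The one that rose was Chek2, the checkpoint kinase that phosphorylates p53 after DNA breaks, from 1.74 ± 0.0992 CPM in sham to 5.27 ± 1.47 CPM in ICH (log2 fold change 1.62, SE 0.26, adjusted p = 0.0226). Hipk2, a kinase that activates p53 towards cell death, fell by 0.57 on the log2 scale (adjusted p = 0.035). Ppp1r13b, whose product ASPP1 steers p53 to cell death genes, fell by 0.47 (adjusted p = 0.0283), and Trp53bp1, the DNA break protein 53BP1, fell by 0.33 (adjusted p = 0.042). Mdm4, the close relative of Mdm2 that masks the activation domain of p53, did not pass, at 0.11 on that scale (adjusted p = 0.490). Cdkn2a, whose product ARF blocks Mdm2, had no count in any sham library and in ICH 1 and 3, 64 counts in ICH 2, and 11, 12 and 26 counts in Laminaria-treated ICH 1, 2 and 3. It was below the filter and was not tested.

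Cdkn1a (chromosome 17, 29090976 to 29100727, plus strand) encodes p21, the inhibitor of cyclin-dependent kinases through which p53 arrests the cell cycle. Its level was 44.9, 43.3 and 33.5 CPM in sham 1, 2 and 3, and 24.9, 90.2 and 48.9 CPM in ICH 1, 2 and 3. ICH 1 was the lowest of all 9 libraries and ICH 2 the highest, 3.62 times as high. The log2 fold change of 0.45 (SE 0.42, adjusted p = 0.529) therefore lay within the spread of the ICH group, and it was -0.12 without ICH 2 and 0.79 without ICH 1. ICH 2 also stood apart in some markers of blood cells. Its 5 monocyte and neutrophil markers summed to 43.5 CPM, against 10.6 in ICH 1 and 18.4 in ICH 3. Of the sum in ICH 2, S100a8 held 10.2 CPM and S100a9 21.0 CPM. Plac8 was nearly even, at 3.47, 3.75 and 3.39 CPM in ICH 1, 2 and 3. Ly6c2 and Ccr2 were higher in ICH 3, at 5.91 and 6.26 CPM, than in ICH 2, at 4.27 and 4.19 CPM. The 5 red cell markers summed to 143 CPM in ICH 2, against 33.1 in ICH 1 and 26.6 in ICH 3. In sham these lists summed to 2.23 to 2.28 CPM and 12.5 to 16.5 CPM, no marker was at 0 in every library of a group, and their part in the level of Cdkn1a was not tested. The gene shares exon sequence with AC167363.2, which held 303 counts over the 9 libraries.

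Ccng1 (chromosome 11, 40748552 to 40755311, minus strand) encodes cyclin G1, an early p53 target that recruits a phosphatase to Mdm2. It stood at 57.0, 61.0 and 57.9 CPM in sham 1, 2 and 3 and at 66.7, 86.2 and 84.9 CPM in ICH 1, 2 and 3. Every ICH library was above every sham library, and the log2 fold change was 0.46 (SE 0.11, adjusted p = 0.0498), the call nearest to the threshold. Beyond the losses it shared with Trp53 or Bax, the call was lost with DESeq2 size factors (adjusted p = 0.0596), with counts divided by the step (adjusted p = 0.0607) and with limma on log2(FPKM + 1) (adjusted p = 0.0513).

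Among relatives of these genes, Cdkn1b and Cdkn1c, which encode the p21 relatives p27 and p57, had log2 fold changes of -0.15 (adjusted p = 0.641) and 0.95 (adjusted p = 0.112). For Ccng2, the paralog of Ccng1, it was -0.15 (adjusted p = 0.454). Of 12 listed cyclins, kinases and partners of the G1 and S phases, 11 were tested, 5 rose and none fell, with a median of 0.57, beside 7.42% higher and 3.16% lower among all genes. They were Ccna2 (cyclin A2, log2 fold change 2.33), Ccnd1 (cyclin D1, 1.79), Cdk2 (1.49), Ccnd3 (cyclin D3, 1.44) and Pcna, the sliding clamp of DNA replication (0.97). The 4 markers of dividing cells moved with them. Their summed level was 5.37 to 21.9 CPM in sham and 38.6, 131 and 141 CPM in ICH 1, 2 and 3. None of the 4 was at 0 in every library of a group, and their part in the changes of the cell cycle genes was not tested.

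Bax (chromosome 7, 45461697 to 45466898, minus strand), the BCL2 family member that opens the outer mitochondrial membrane in apoptosis, had the smallest p of the 9 genes tested. It stood at 30.1, 25.5 and 28.8 CPM in sham 1, 2 and 3 and at 37.0, 44.4 and 40.3 CPM in ICH 1, 2 and 3. The groups were apart, and the log2 fold change was 0.55 (SE 0.11, adjusted p = 0.0319). Gm45808, whose exons overlap those of Bax, had 0 counts.

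Of 15 other BCL2 family genes, 14 were tested, 4 rose and none fell, with a median of 0.57. Of all genes tested 7.42% rose and 3.16% fell, and a share of that size would also leave no fall among 14 genes. Bcl2l11, which encodes the killer protein BIM, went from 4.54 ± 0.469 to 10.4 ± 1.20 CPM (log2 fold change 1.22, SE 0.17, adjusted p = 0.0222). Bmf, another protein that carries only the BH3 killing domain, rose as well (0.87, SE 0.18, adjusted p = 0.0333). The other 2 were Bcl2a1a (2.97) and Bcl2a1b (3.06), survival genes of blood and microglial cells. Bcl2a1a had only 17, 10 and 19 counts in sham 1, 2 and 3, in sham 2 below a floor of 11.07 counts (3 count steps). A further copy, Bcl2a1d, was not called (2.53, SE 1.2, adjusted p = 0.217 by edgeR). These copies are near-identical and may have shared reads.

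Phlda3 (chromosome 1, 135766119 to 135769136, plus strand) encodes a small protein that competes with the survival kinase Akt for membrane lipids. Its level was 49.6, 27.0 and 32.0 CPM in sham 1, 2 and 3 and 41.3, 50.8 and 37.9 CPM in ICH 1, 2 and 3. Sham 1 lay above all but 1 ICH library, and the log2 fold change was 0.28 (SE 0.24, adjusted p = 0.483). The estimate was 0.58 without sham 1.

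Trp53inp1 (chromosome 4, 11156431 to 11174379, plus strand), a stress protein that promotes death and autophagy, had the same mean of 19.3 CPM in sham and ICH. The libraries read 21.0, 22.2 and 14.8 CPM in sham 1, 2 and 3 and 16.1, 19.5 and 22.3 CPM in ICH 1, 2 and 3. They overlapped, and the log2 fold change of 0.02 (SE 0.19, adjusted p = 0.953) turned to -0.06 with TPM scaling and to -0.01 with no filter. For its relative Trp53inp2 the estimate was 0.12 (adjusted p = 0.511).

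Eda2r (chromosome X, 97333840 to 97377216, minus strand), the receptor of the ectodysplasin form EDA-A2, was the least abundant of the 10 genes and fell below the filter. It had 19, 8 and 37 counts in sham 1, 2 and 3 and 71, 165 and 143 counts in ICH 1, 2 and 3. In CPM these were 0.267, 0.135 and 0.580 against 1.26, 2.21 and 2.21, so the groups were apart and the ICH mean was 5.79 times the sham mean. In a fit with no filter the log2 fold change was 2.51 (SE 0.56, adjusted p = 0.0525), just short of a call. For its ligand gene Eda the estimate was -0.07 (adjusted p = 0.834).

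Gdf15 (chromosome 8, 70629393 to 70632456, minus strand) encodes a secreted stress cytokine of the TGF-β family. It had 0, 27 and 76 counts in sham 1, 2 and 3 and 129, 130 and 118 counts in ICH 1, 2 and 3. The sham libraries thus read 0, 0.456 and 1.19 CPM, the first below a floor of 0.158 CPM (3 count steps), against 2.29, 1.74 and 1.83 CPM in ICH. The groups were apart, yet the sham libraries were so unequal that the log2 fold change of 1.86 (SE 1.08, adjusted p = 0.307) was not called. The estimate ran from 0.65 to 3.15 over the alternatives. Gfral, the receptor of GDF15, had no count in 5 of these 6 libraries and 6 counts in ICH 2.

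Gdf15 is also a target of the integrated stress response, so 8 genes of that pathway were read beside it. Atf3 rose by 2.50 on the log2 scale (SE 0.47, adjusted p = 0.0288), Atf4 fell by 1.16 (SE 0.13, adjusted p = 0.0214), and the median of the 8 was 0.03. Atf3 is also induced by p53 and by many other stresses, and Atf4 encodes the central factor of the response.

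Plk2 (chromosome 13, 110395046 to 110400844, plus strand) encodes a polo-like kinase that neurons switch on with activity and that weakens their synapses. Its level was 137, 221 and 205 CPM in sham 1, 2 and 3 and 109, 90.3 and 137 CPM in ICH 1, 2 and 3. Sham 1 and ICH 3 were level to 3 digits in CPM, and by FPKM, at 25.9 and 27.3, they overlapped. The log2 fold change of -0.72 (SE 0.22, adjusted p = 0.085) did not pass with edgeR and passed with DESeq2 (-0.74, adjusted p = 0.0125). Its relative Plk1, a mitotic kinase, rose by 2.33 (SE 0.48, adjusted p = 0.0334), and for Plk3 the estimate was 0.26 (adjusted p = 0.221).

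Plk2 is an early activity gene in neurons, and 7 immediate early genes were read beside it. Only Egr1 was called among them, falling from 356 ± 105 to 142 ± 44.3 CPM (log2 fold change -1.30, SE 0.31, adjusted p = 0.045), and the median of the 7 was -1.14. The 5 markers of neurons summed to 3840, 3660 and 3510 CPM in sham 1, 2 and 3. In ICH 1, 2 and 3 they summed to 3140, 2380 and 2210 CPM. Those of medium spiny neurons summed to 2020, 3290 and 2950 CPM in sham 1, 2 and 3 and to 1890, 1380 and 2000 CPM in ICH 1, 2 and 3. Sham 1 was thus the lowest sham library both for Plk2 and for the medium spiny markers, and ICH 2 the lowest ICH library. By the general neuron markers the order differed, with sham 1 the highest sham library and ICH 3 the lowest ICH library. The part of the neuronal markers in the level of Plk2 was not tested.

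**Figure D3:**
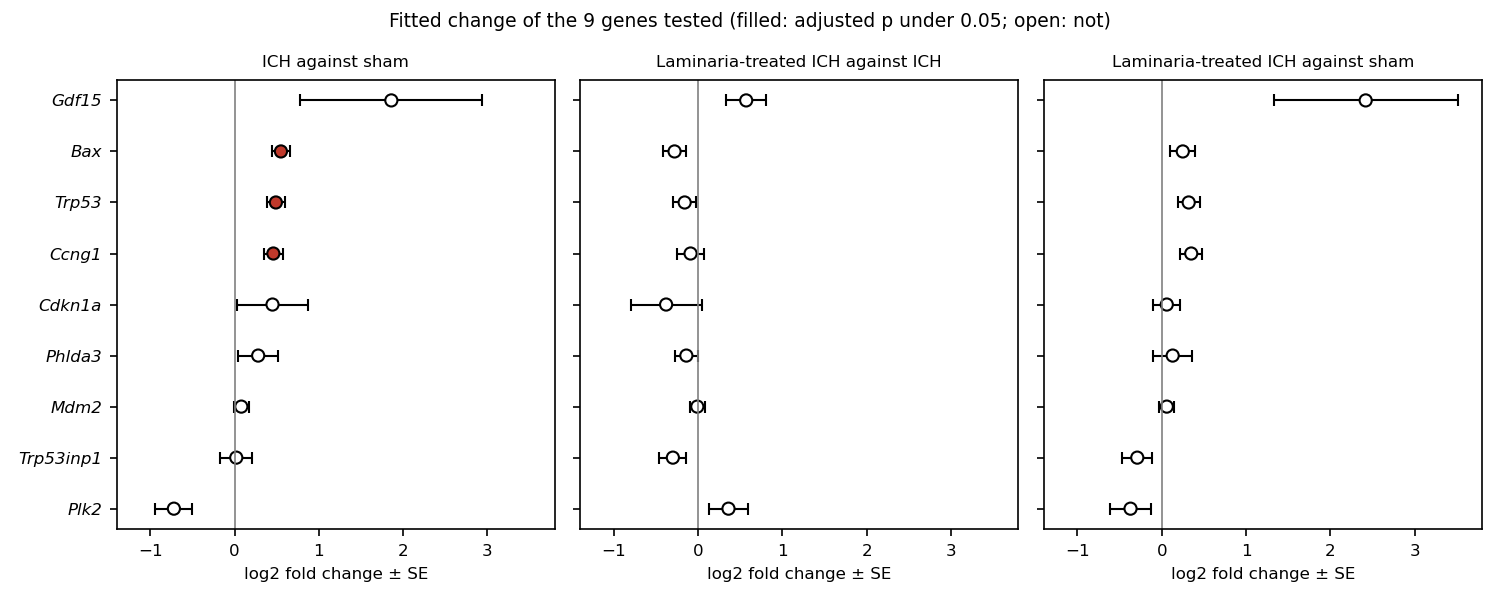
Fitted log2 fold change and its standard error (x axes) of the 9 genes tested, for ICH against sham, Laminaria-treated ICH against ICH and Laminaria-treated ICH against sham; filled points had an adjusted p under 0.05. Only Bax, Trp53 and Ccng1 are filled, all in ICH against sham, and Gdf15 carries the widest error.

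Beyond the 10 genes, 28 further textbook targets of p53 were listed by what they do. In ICH against sham 27 were tested, 2 rose and 4 fell, with a median of 0.25. The share that rose was no larger than the 7.42% of all genes, and 3.16% of all genes fell. Without ICH 1 there were 7 calls, and without any one of the other 5 libraries there was none.

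The 2 that rose were Perp and Pidd1. Perp, a membrane protein of p53-driven apoptosis, went from 4.92, 4.31 and 4.58 CPM in sham 1, 2 and 3 to 11.7, 7.24 and 8.41 CPM in ICH 1, 2 and 3 (log2 fold change 1.01, SE 0.23, adjusted p = 0.0403). It read 4.53, 7.47 and 8.21 CPM in Laminaria-treated ICH 1, 2 and 3. In the same order, the 3 choroid plexus markers summed to 695, 96.8 and 1280 CPM in sham and 4800, 1800 and 2440 CPM in ICH. With Laminaria they summed to 77.4, 2350 and 2130 CPM. Their part in the level of Perp was not tested. Pidd1, a death domain protein that activates caspase-2, rose by 0.82 (SE 0.19, adjusted p = 0.0454). Among the 10 targets with a role in cell death, 9 were tested, 2 rose and none fell, and the median was 0.72. Of all genes tested 7.42% rose and 3.16% fell, and a share of that size would also leave no fall among 9 genes. Bbc3, which encodes the p53 effector PUMA, did not pass, at a log2 fold change of 0.62 (adjusted p = 0.0601).

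The 4 that fell were Gls2, Zfp365, Tigar and Zmat3. Gls2, a mitochondrial glutaminase, fell by 0.68 (SE 0.16, adjusted p = 0.0472), and Tigar, which lowers glycolysis, fell by 0.52 (SE 0.11, adjusted p = 0.0368). Zfp365, a genome stability gene, went from 442 ± 50.7 to 282 ± 26.5 CPM (-0.62, SE 0.12, adjusted p = 0.0307). Zmat3, an RNA-binding protein, went from 106 ± 3.58 to 84.8 ± 0.918 CPM (-0.30, SE 0.07, adjusted p = 0.0448). Of the 10 targets of DNA repair and metabolism, all tested, none rose and 2 fell, with a median of 0.09. Of the 8 of arrest and signalling none rose and 2 fell, with a median of 0.34. Among all genes tested 7.42% rose and 3.16% fell, and such a share could also leave no rise among 8 or 10 genes.

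**Figure D4:**
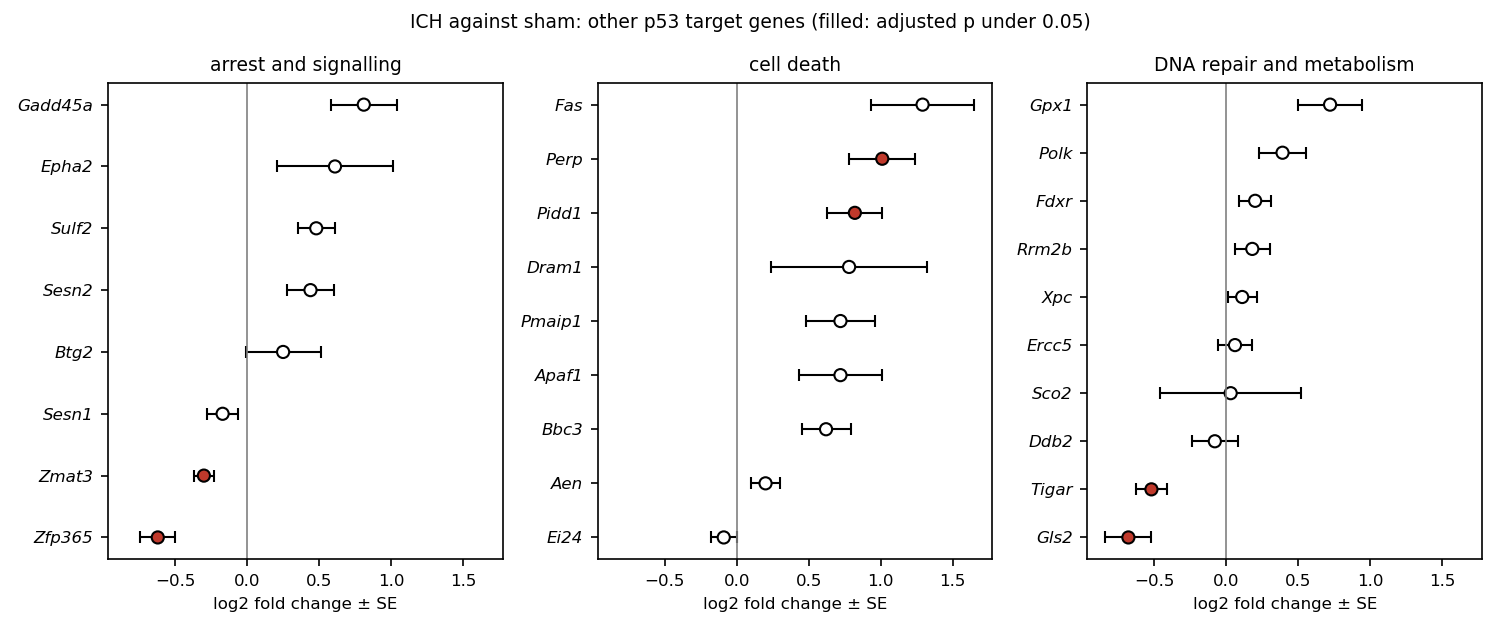
Fitted log2 fold change of ICH against sham and its standard error (x axes) for the 27 other p53 targets tested, in 3 groups by function; filled points had an adjusted p under 0.05. The filled points right of 0 are Perp, at 1.01, and Pidd1, at 0.82, and the 4 left of 0 are Zmat3, Zfp365, Tigar and Gls2.

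Profiles over the 9 libraries were compared next. The likeness of a pair of genes was measured as the root mean square difference of their log2(CPM + 1) profiles, each centred on its own mean. It was 0.08 for Trp53 and Bax, 0.09 for Trp53 and Ccng1, and 0.12 for Ccng1 and Bax, the smallest values of all pairs among the 10 genes. These 3 genes had been called for similar changes, so close profiles follow in part from the calls. Of the 15996 genes other than Trp53, with Bax among them, 60 lay at the distance of Bax or closer, and the median distance from Trp53 was 0.31. Cdkn1a was 0.39 or more from every other gene of the set, Plk2 0.44 or more and Gdf15 0.5 or more.

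**Figure D5:**
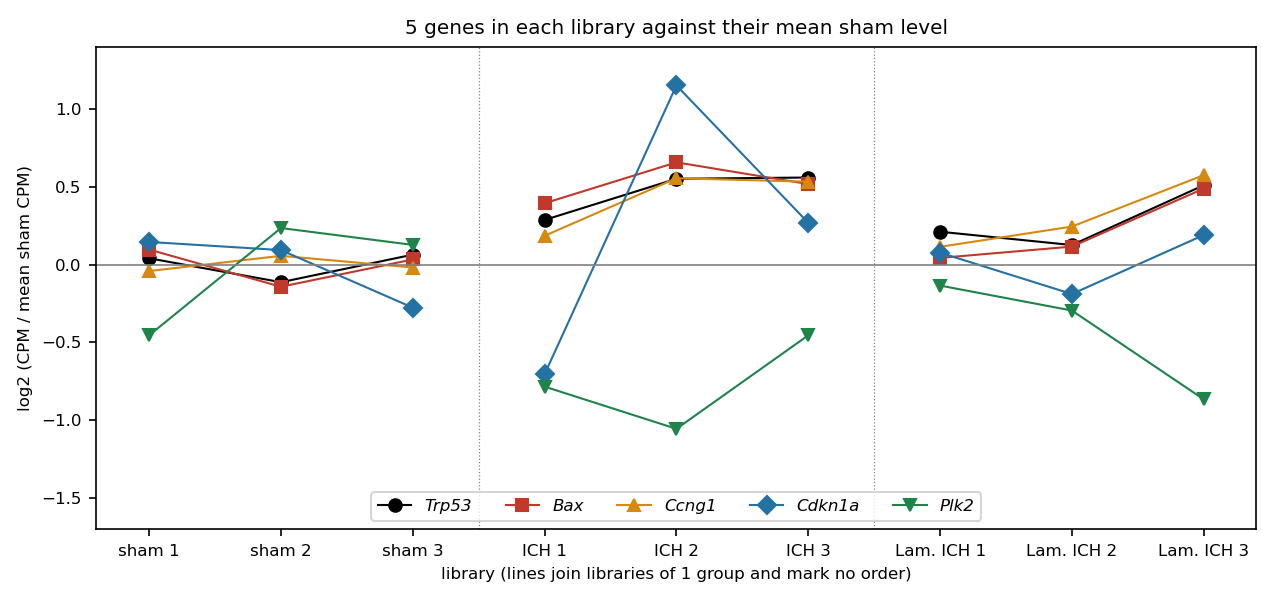
Level of 5 genes in each library as log2 of the ratio to their mean sham CPM (y axis), with sham, ICH and Laminaria-treated ICH libraries along the x axis; lines join libraries of 1 group and mark no order. Trp53, Bax and Ccng1 run together, Cdkn1a parts from them in ICH 1 and ICH 2, and Plk2 is below 0 in all ICH and all Laminaria-treated ICH libraries.

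Within groups, libraries differed for many of the genes at once. ICH 1 was the lowest ICH library for 7 of the 10 genes, and ICH 2 was the highest for 5. Laminaria-treated ICH 3 was the highest of its group for 8 of the 10. Summed markers of other cells also differed between these libraries. The 6 microglia and macrophage markers summed to 192, 210 and 310 CPM in sham 1, 2 and 3, to 400, 769 and 723 CPM in ICH 1, 2 and 3, and to 420, 364 and 810 CPM in Laminaria-treated ICH 1, 2 and 3. Of the 6, P2ry12 alone was highest in ICH 1, at 37.6 CPM against 20.2 and 27.2 in ICH 2 and 3. Cx3cr1 held 169 CPM in Laminaria-treated ICH 3, against 12.6 and 7.83 in Laminaria-treated ICH 1 and 2. Of these 6, 4 were called higher in ICH than in sham, where 7.42% of all genes tested were. Tmem119 and P2ry12 were not called, and none of the 6 was at 0 in every library of a group. The 5 astrocyte markers summed to 2160 to 3010 CPM in sham. In ICH 1, 2 and 3 they summed to 4080, 6740 and 6560 CPM, again lowest in ICH 1. Gfap held 1950, 4360 and 4220 CPM of these ICH sums. Aqp4 and Aldh1l1 were also lowest in ICH 1, whereas Slc1a2 was lowest in ICH 2 and Gja1 in ICH 3. Of the 5, 3 were called higher, and Slc1a2 and Gja1 were not. The part of these cells in the levels of Trp53, Bax and Ccng1 was not tested.

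The genes outside the set with the profiles most like Cdkn1a, among 15997 genes tested in all comparisons, were Map3k6 (0.17), Nfkbia (0.19), Spsb1 (0.19), Smim3 (0.20) and Helz2 (0.22), by the same measure over 9 libraries. Those most like Plk2 were Itpr1 (0.07), Pdyn (0.10), Mn1 (0.10), Rprml (0.11) and Arpp21 (0.11). For Gdf15 no gene came as close, and the nearest were Rpl30-ps1 (0.24), Platr25 (0.28), Spint1 (0.32), Glipr1 (0.32) and Itgam (0.33).

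With Laminaria, no gene of the 10 was called against ICH alone. edgeR gave adjusted p values of 0.951 to 0.995 for the 9 genes tested, none had an unadjusted p under 0.05, and neither DESeq2 nor limma called any. Across all genes, 0.018% of 16654 genes tested were called, and 560 had an unadjusted p under 0.05. The median log2 fold change of the 9 genes was -0.14.

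Bax stood at 29.0, 30.5 and 39.5 CPM in Laminaria-treated ICH 1, 2 and 3, where the third library fell within the ICH range and the other 2 within or near the sham range. The log2 fold change against ICH was -0.28 (SE 0.14, adjusted p = 0.951). Trp53, at 27.8, 26.2 and 34.2 CPM, and Ccng1, at 63.5, 69.5 and 87.4 CPM, were likewise highest in the third library, with log2 fold changes against ICH of -0.16 (SE 0.14) and -0.09 (SE 0.16). Cdkn1a was even across the group at 42.8, 35.6 and 46.3 CPM, and its log2 fold change of -0.38 (SE 0.42) became 0.17 without ICH 2.

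Mdm2 was at 51.6, 48.0 and 52.1 CPM, Phlda3 at 34.3, 40.9 and 41.5 CPM and Trp53inp1 at 14.2, 15.6 and 17.0 CPM in Laminaria-treated ICH 1, 2 and 3. All 3 genes overlapped with ICH, with log2 fold changes of -0.01 for Mdm2, which was 0.05 with TPM scaling, -0.14 for Phlda3 and -0.30 for Trp53inp1. Plk2 read 171, 153 and 103 CPM, with the third library inside the ICH range, and its log2 fold change was 0.36 (SE 0.23).

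Gdf15 and Eda2r were the genes of the set whose Laminaria-treated and ICH libraries did not overlap, and 9.06% of all genes tested did not. Gdf15 was higher, at 3.26, 2.93 and 2.43 CPM (log2 fold change 0.57, SE 0.24, unadjusted p = 0.051). Eda2r was lower, at 1.14, 0.829 and 1.17 CPM from 63, 53 and 63 counts (log2 fold change -0.85, unadjusted p = 0.042 with no filter). Neither passed the adjustment, with adjusted p values of 0.951 and 0.812.

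Against sham, edgeR called none of the 9 genes tested in the Laminaria-treated libraries, where 0.0183% of 16405 genes were called. The adjusted p values were 0.231 to 0.874, and neither DESeq2 nor limma called any. An unadjusted p under 0.05 by edgeR was found for 2 of the 9 genes and for 2944 of all 16405. Trp53, Ccng1, Gdf15 and Eda2r were above every sham library in every Laminaria-treated library, and 28.5% of all genes tested did not overlap. The log2 fold changes were 0.32 (SE 0.13) for Trp53, 0.35 (SE 0.13) for Ccng1 and 2.42 (SE 1.09) for Gdf15. Bax had a log2 fold change of 0.25 (SE 0.15), with its lowest Laminaria-treated library, at 29.0 CPM, inside the sham range. These values share their sham or ICH libraries with the comparisons above.

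Of the 27 other p53 targets tested in Laminaria-treated ICH against ICH, edgeR, DESeq2 and limma called none. By edgeR 1 had an unadjusted p under 0.05, beside 560 of all 16654 genes. Their median log2 fold change was -0.09. Against sham edgeR called none of 26, DESeq2 called 2 and limma none. In this comparison DESeq2 also called far more genes than edgeR in the whole table, as given below. By edgeR 4 had an unadjusted p under 0.05, beside 2944 of all 16405 genes. The regulator Chek2 was at 4.48, 2.91 and 7.19 CPM in Laminaria-treated ICH 1, 2 and 3, highest in the third library.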

How the data were processed

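Total RNA of 9 libraries from mouse basal ganglia was sequenced. For each gene the authors deposited counts and FPKM of every library. The submitters' processing notes name cutadapt 1.9, FastQC 0.10.1, HISAT2 2.0.4, StringTie 1.3.4 and the rat build Rnor_6.0, whereas the table carries mouse GRCm38 genes. Annotation, counting and strand: not given in the sources used here. FPKM listed as 0.0001 at a count of 0 was set to 0. Groups came from the labels.

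Counts were scaled by TMM and compared with edgeR 4.0.16 (quasi-likelihood test, Benjamini-Hochberg adjustment) in R 4.3.3, with the 2 groups of each comparison in a fit and no covariate, after tests on simulated data. Floors are 3 count steps in a library and cover counting error only. Tables were made with Python 3.11.15 and pandas 2.3.3. The 10 genes and the lists were chosen with earlier results of these data known. All 10 are named. A gene of the lists is not reported here and was left out of their counts. From each list up to 4 called genes with the largest change, called genes against the direction of the list and close relatives are named, and for likeness the 5 nearest genes to Cdkn1a, Gdf15 and Plk2. Cdkn2a, Bbc3 and Mdm4 were named after their values were seen. Alternatives were DESeq2 1.42.0 and its size factors, limma 3.58.1 on log2(FPKM + 1) or log2(FPKM + 0.1), a filter at FPKM 2 or none, a fit of all 9 libraries, replicate number added as a block, counts divided by the step, and leaving out each library. limma on log2(TPM + 1) was added after seeing the data.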

Additional observations from a re-analysis of the deposited data

How the results depend on the processing

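For the 9 genes tested in 3 comparisons, 386 of 428 log2 fold changes under alternatives kept direction and side of the threshold. Another 28 lost a call, 1 gained one and 13 changed sign, none of them called, and the cause was not tested. All lost calls were in ICH against sham. Trp53 lost its call in 9 of 16 alternatives, Ccng1 in 12 and Bax in 7. The other genes and comparisons had no call to lose. In ICH against sham, Cdkn1a was -0.12 without ICH 2, Mdm2 was -0.02 with TPM, and Trp53inp1 was -0.06 with TPM, -0.01 with no filter, -0.14 without sham 3 and -0.12 without ICH 3. In Laminaria-treated ICH against ICH, Cdkn1a was 0.17 without ICH 2, and Mdm2 was 0.05 with TPM, 0.04 without ICH 2 and 0.03 without Laminaria-treated ICH 2. Against sham, Cdkn1a was -0.06 without sham 3 and -0.03 without Laminaria-treated ICH 3, and Phlda3 was -0.05 without sham 2. When a library was left out, these estimates ran from -0.12 to 0.79, -0.72 to 0.17 and -0.06 to 0.16 for Cdkn1a in the 3 comparisons, and from -0.05 to 0.42 for Phlda3 against sham. The count of the 10 genes called higher in ICH, 3, was 1 with limma on TPM, 0 with no filter, 1 with all 9 libraries in 1 fit, and 0 to 3 when a library was left out. DESeq2 called 1 lower, Plk2. The number of genes called in the whole table for ICH against sham was 1737, 3547 with DESeq2, and 0 to 2746 when a library was left out. For Laminaria-treated ICH against ICH it was 3, 48 with DESeq2, 1 with all 9 libraries, and 0 to 1 when a library was left out. For Laminaria-treated ICH against sham it was 3, 1312 with DESeq2, 5 with limma on log2(FPKM + 1), 16 with all 9 libraries, 5 with counts divided by the step, 0 to 14 when a library was left out, and 0 with DESeq2 size factors, no filter or a filter at FPKM 2.

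The deviations of libraries with the same replicate number correlated at 0.12, -0.04 and 0.10 in ICH against sham. Those with other numbers correlated at -0.15 to 0.07. In Laminaria-treated ICH against ICH the same-number values were 0.08, -0.26 and 0.09, and the others -0.32 to 0.32. In Laminaria-treated ICH against sham they were -0.13, 0 and 0.13, and the others -0.17 to 0.21. The values thus showed no pairing by number, but with 3 libraries per group they cannot exclude it. With the replicate number as a block, none of the 10 genes was called higher in ICH (0), and the whole table gave 839, 0 and 302 calls in the 3 comparisons. Gdf15 and Eda2r had at most 76 counts in a sham library, so their estimates rest on few counts.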
